A study of Schmidtea mediterranea with 8 samples.

Results

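The 150 transcripts described here were abundant in the dividing stem cell fraction of the planarian and were measured at 15% to 25% of that level in the fraction of mostly post-mitotic cells. They were chosen by their measured values. The mean of 4 Xins libraries was divided by the mean of 4 X1 libraries for each of 17882 transcripts, the 799 transcripts with a ratio from 15% to 25% were taken, and of these the 150 with the highest X1 mean are the members. Both fractions were sorted by flow cytometry, after Hoechst blue staining of DNA, from adult Schmidtea mediterranea, a freshwater flatworm of which the study kept the asexual strain CIW4. Xins is the irradiation-insensitive fraction, a mixture of differentiated and differentiating cells. X1 is the irradiation-sensitive fraction of dividing neoblasts. No treatment or genetic change separated the fractions, and each was sampled in 4 libraries of polyadenylated RNA. The labels number these libraries 1 to 4 without saying whether they came from separate animals or sorts, so the p-values below measure only the spread between these libraries, which may be technical.

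Neoblasts are the only dividing somatic cells of a planarian and the source of all its other cells. They carry perinuclear granules rich in RNA and proteins of the Piwi, Tudor and Vasa families, which act in the small RNA pathway that silences transposons. Dividing cells also make ribosomes at a high rate. That work is done in the nucleolus, where small nucleolar RNA-protein complexes modify ribosomal RNA and assembly factors bring it together with ribosomal proteins. Products of both programmes stand among the members, beside splicing factors, chromatin proteins and chaperones.

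The labelled fractions were checked against their markers. PCNA and MCM2 to MCM7, which encode the clamp and the helicase of DNA replication, summed to 30.5 to 70.1 RPKM in the Xins libraries and 1407 to 1710.0 RPKM in the X1 libraries. RPKM values are reads scaled to transcript length and to the authors' library sizes. All 7 were lower in Xins, at 1.67% to 6.67% of their X1 mean (limma, adjusted p from 2.58e-10 to 7.75e-09). The neoblast marker piwi-1 averaged 53.1 ± 22.9 RPKM in Xins and 2104 ± 157 RPKM in X1 (SD, n = 4 each). The 6 epidermal progeny markers, AGAT-1, zpuf-6 and egr-5 among them, summed to 1807 to 2754 RPKM in Xins and 8.55 to 31.2 RPKM in X1. The 5 gut markers summed to 65.1 to 93.2 RPKM in Xins and 76.6 to 97.7 RPKM in X1, and went opposite ways. Of these, nkx-2.2 (52.4% of X1) and zfp-2 (49.8%) were lower in Xins, and acsl-1, cyp3G1 and cyp3143A1 were higher (limma, adjusted p from 1.56e-06 to 0.0199 over the 5). Whole reads recovered from the RPKM values came to 14472702 to 15523242 per Xins library and 14323705 to 15180061 per X1 library.

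**Figure D1:**
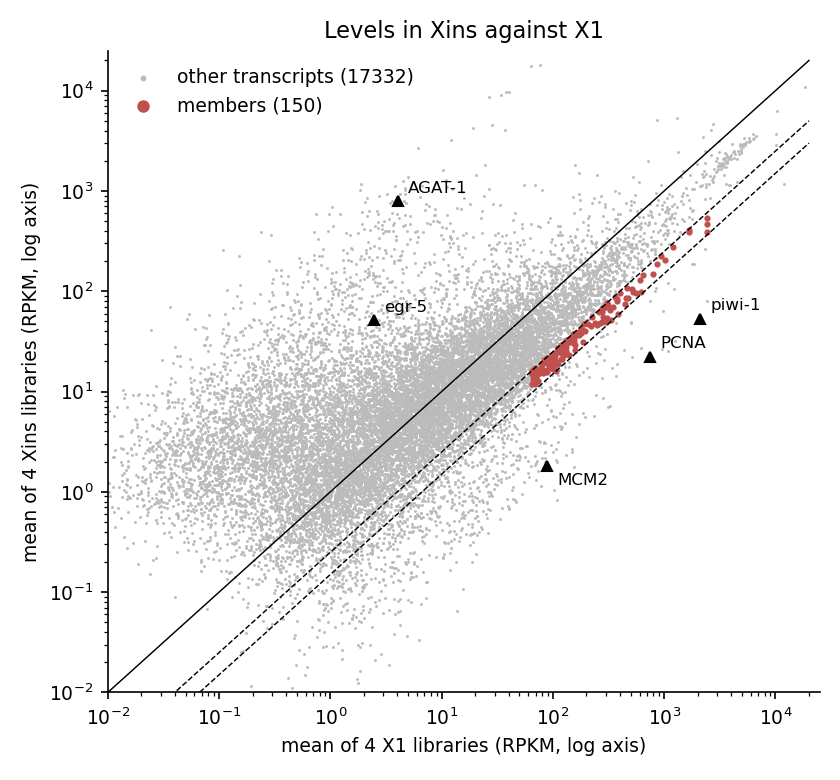
Mean RPKM of the 4 Xins libraries (vertical, log axis) against the mean of the 4 X1 libraries (horizontal, log axis) for each transcript, with the 150 members in red, 17332 other transcripts in grey and 5 markers as triangles. The solid line is equality and the dashed lines are 25% and 15% of the X1 level, 400 transcripts with a mean of 0.01 RPKM or less in a fraction are not drawn, and the members form the abundant end of the band, well above piwi-1, PCNA and MCM2 in their Xins share.

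The members' means ran from 11.8 to 541 RPKM in Xins, with a median of 29.2, and from 64.3 to 2446 RPKM in X1, with a median of 133. Of the 150, 7 had an X1 mean above 1000 RPKM, 47 above 200 and 105 above 100. As read by the choice itself, the Xins level was 15.1% to 24.9% of the X1 level, with a median of 21.6% and quartiles of 18.8% and 23.3%. In bulk samples such a value cannot tell fewer cells of a type from less RNA per cell. All 150 stood below their X1 level in the fit across all transcripts, where 77.2% of the 15563 tested differed at an adjusted p under 0.05 and 35.5% were lower in Xins. All 4 Xins libraries lay below all 4 X1 libraries for each of the 150, as for 32.5% of all tested. Both counts of members follow from their choice. The lowest X1 library was 2.17 to 4.95 times the highest Xins library, with a median of 3.26. The smallest number of recovered reads for a member in any library was 68, so counting error was small beside these gaps.

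The limits of the rule cut through a continuous range, and they depend on the scaling inside the RPKM values. With library sizes from summed reads, an alternative chosen after seeing the data, the rule found 64 of the 150 again, and with a common sum per library 78. The last member, SMED30010286, averaged 15.9 RPKM in Xins and 64.3 RPKM in X1, and the first transcript left out, SMED30006454, averaged 11.1 RPKM in Xins and 64.2 RPKM in X1. The member with the lowest Xins share was SMED30033191, at 15.1%, with an X1 mean of 105.6 RPKM. SMED30028914, a photolyase hit that repairs ultraviolet damage in other species, stood just outside at 14.9%, with an X1 mean of 97.2 RPKM. At the upper limit SMED30019021 was a member at 24.9% and SMED30020325 was outside at 25.02%. Of the 1961 transcripts with an X1 mean at least that of the last member, 141 had an Xins level under 15% of X1, 150 were members and 1670 lay above 25%. Of the last, 698 stood below 50%, and the median over all 1961 was 49.7%.

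The place of the members among all transcripts follows from the rule, which sets a floor on both levels, and is given as a description. The median of all transcripts tested was 9.06 RPKM in Xins. The members lay between the 56.6th and the 98.3rd percentile of Xins levels, with a median at the 76.8th, and at or above the 87.4th percentile in X1. They took 1.07% to 1.30% of the recovered reads in the Xins libraries and 4.51% to 4.85% in the X1 libraries. The most abundant member in X1 ranked 308th among the tested transcripts in Xins and 89th in X1.

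Names come from the closest Swiss-Prot protein that the study's supplementary tables give for a transcript. Those tables describe only transcripts that changed in the study's RNAi experiments or were cloned, 1505 of the 17882. The lists below are therefore not whole pathways. Descriptions were also uneven between levels of Xins share. They covered 54.0% of the 150 most abundant transcripts with an Xins share under 10%, but 8.62% of all tested. Of the 150 most abundant near equality between fractions they covered 14.7%. Counts of list transcripts lower in Xins therefore do not speak for transcripts without a description. A description was at hand for 42 of the 150 members. A name from another species is a closest hit, and transcripts of one family can share reads, so that values of the heat shock, Piwi, TIA-1 and histone hits are uncertain to that extent.

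Of the Piwi, Tudor and Vasa-like list, 3 of 10 transcripts were members. SMED30014446, Piwi-like protein 2, is a planarian Piwi needed for neoblasts to produce differentiated cells. It was measured at 205, 145, 267 and 199 RPKM in Xins libraries 1 to 4, against 1068, 1129, 911 and 948 RPKM in X1 libraries 1 to 4. Xins library 2 was the lowest and library 3 the highest, and neither came near the X1 libraries. Its Xins mean was 20.1% of its X1 mean. SMED30001362, whose closest hit is chicken Piwi-like protein 1, had 71.2, 91.4, 102 and 124 RPKM in Xins, against 595, 566, 616 and 462 RPKM in X1. Here library 4 was the highest of the Xins and the lowest of the X1 libraries. SMED30016009, a hit to Tudor domain-containing protein 1, a scaffold of Piwi proteins, had 18.8, 14.5, 17.8 and 13.4 RPKM in Xins, against 90.1, 87.7, 79.0 and 86.0 RPKM in X1. This was the member of the list with the lowest level and the tightest X1 values.

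The 7 other transcripts of that list were lower in Xins in each case (7 of 7, limma, Benjamini-Hochberg adjusted over all transcripts, as for every test here). Their median log2 difference, Xins minus X1, was -2.996, against 0.11 over all 15563 tested. The latter is not a matched background, since the list holds only transcripts with a description. All 7 stood under 15% of their X1 level, so within this list the members were the 3 with the highest Xins share. The most abundant of the 7, piwi-1 (SMED30007406), was at 2.53% (log2 difference -5.36, SE 0.23, adjusted p = 1.48e-09). The 2 hits to the Vasa-like helicase DDX4, SMED30031463 and SMED30022978, were at 5.08% and 11.1%.

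Of the 12 function lists, ribosome biogenesis held the most members, 8 of its 19 transcripts. SMED30021037, an NHP2-like protein 1 that binds small nucleolar and spliceosomal RNAs, had 83.3, 113, 116 and 76.2 RPKM in Xins, against 425, 512, 474 and 678 RPKM in X1. Library 4 was the lowest Xins and the highest X1 library. SMED30020124, the hit to human RRS1, which acts in assembly of the large ribosomal subunit, had 73.6, 69.1, 112 and 87.3 RPKM in Xins, against 471, 503, 452 and 459 RPKM in X1. Its X1 libraries lay close together and Xins library 3 stood above the other Xins libraries.

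SMED30025222, the pseudouridine synthase of H/ACA particles, averaged 48.7 ± 11.1 RPKM in Xins and 266 ± 40.7 RPKM in X1. SMED30007143, Nucleolar GTP-binding protein 2, averaged 39.98 ± 11.7 RPKM in Xins and 193 ± 25.3 RPKM in X1. SMED30028606, Nucleolar protein 56, a core protein of the particles that guide methylation of ribosomal RNA, averaged 26.1 ± 4.80 RPKM in Xins and 123 ± 13.6 RPKM in X1 (SD, n = 4 each). These 3 stood at 18.3%, 20.7% and 21.3% of X1. SMED30005802, Nucleolin, an abundant nucleolar RNA-binding protein, had 29.96, 20.5, 41.5 and 33.5 RPKM in Xins, against 177, 148, 139 and 121 RPKM in X1. The remaining members of the list were a nucleolar protein 5-2 hit (SMED30020736) at 17.9% and a WDR12 hit (SMED30000887) at 21.2%. The 8 members spanned 17.9% to 21.4%, within the 15% to 25% that the rule admits, and the whole list of 19 spanned 13.7% to 68.8%.

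The other transcripts of the ribosome biogenesis list were lower in Xins in 11 of 11 cases, with a median log2 difference of -1.96. Of these, 4 lay in the same band of 15% to 25% and were left out for their lower X1 level, 1 was below the band and 6 above it. Nucleolar GTP-binding protein 1 (SMED30007287), the most abundant of the 11, averaged 181 ± 52.0 RPKM in Xins and 439 ± 60.6 RPKM in X1, 41.2% (log2 difference -1.31, SE 0.20, adjusted p = 5.81e-05). The whole list of 19 had a median Xins share of 20.7%. The list of 37 cytosolic ribosomal proteins, the products that these factors assemble with ribosomal RNA, had a median of 53.6% and no member. Of these 37, 35 were lower and 2 higher in Xins. Ribosomal protein L5 (SMED30014493), the most abundant, averaged 3264 ± 755 RPKM in Xins and 6288 ± 811 RPKM in X1 (log2 difference -0.96, SE 0.20, adjusted p = 0.00087).

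**Figure D2:**
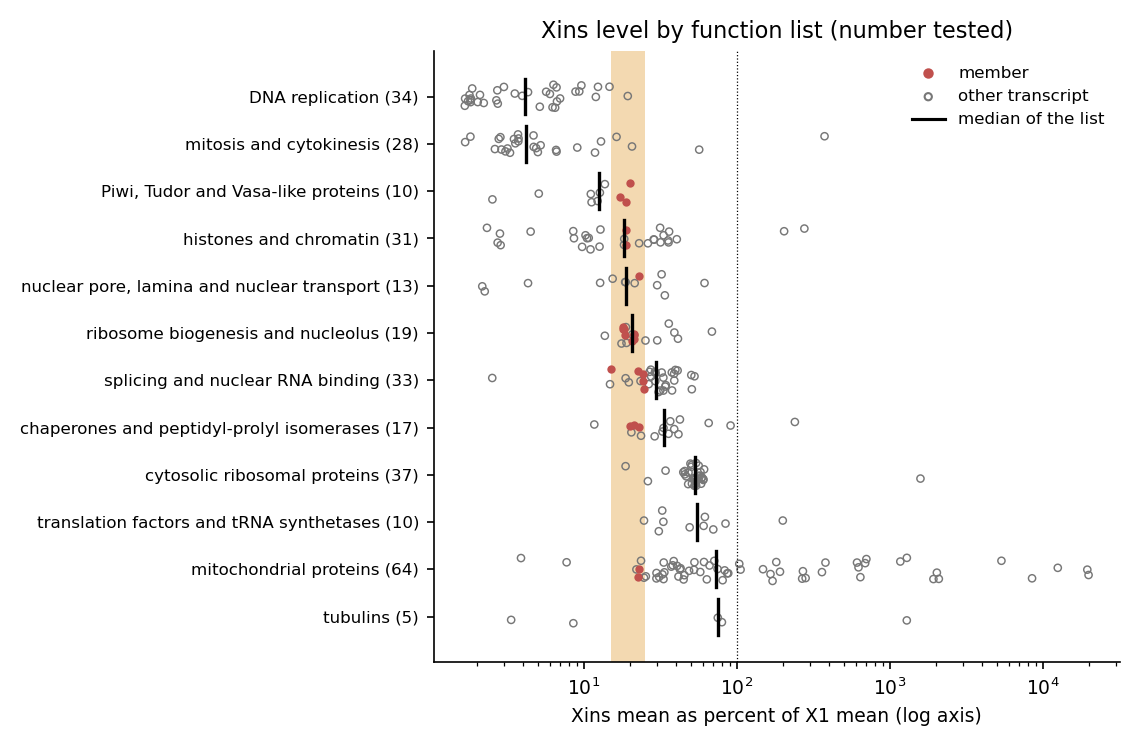
Xins mean as percent of X1 mean (horizontal, log axis) for each tested transcript of the 12 function lists, with members in red, other transcripts as open circles and the list median as a black bar, lists ordered by median. The shaded band is the 15% to 25% of the rule and the dotted line is equality, and medians run from 4.14% for DNA replication through 20.7% for ribosome biogenesis to 75.1% for tubulins.

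The lists differed widely in their Xins share. DNA replication (34 transcripts) and mitosis and cytokinesis (28 tested) had medians of 4.14% and 4.22% and no member, with 33 of 34 and 24 of 28 transcripts under 15%. PCNA (SMED30004304), the most abundant of the first, was at 3.00% (log2 difference -5.10, SE 0.27, adjusted p = 7.75e-09), and the mitotic kinase PLK1 hit (SMED30025780), the most abundant of the second, at 3.74% (log2 difference -4.61, SE 0.15, adjusted p = 3.52e-10). The Piwi list followed at 12.5%. Histones and chromatin (31 tested), nuclear pore, lamina and transport (13), and ribosome biogenesis lay at 18.4%, 18.7% and 20.7%. Splicing (33) stood at 29.5%, chaperones (17) at 33.2%, translation factors (10) at 55.0%, mitochondrial proteins (64) at 73.1% and tubulins (5) at 75.1%. The shares are described, not tested, since the members were drawn from the same ratio.

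Of the splicing and nuclear RNA-binding list, 5 of 33 transcripts were members. SMED30013157, a hit to the KH-domain RNA-binding protein KHDR2, was the most abundant described member after the histone hit. It had 325, 427, 433 and 457 RPKM in Xins, against 1423, 1439, 1851 and 1987 RPKM in X1. Library 1 was the lowest in both fractions and library 4 the highest in both. SMED30027904, Pre-mRNA-processing factor 19, a ubiquitin ligase of the spliceosome, averaged 87.0 ± 12.4 RPKM in Xins and 359 ± 50.4 RPKM in X1, and SMED30023057, a polypyrimidine tract-binding protein 3 hit, averaged 68.2 ± 4.496 RPKM in Xins and 275 ± 13.8 RPKM in X1.

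SMED30033191, a hit to the spliceosome protein Crooked neck-like 1, was the member nearest the lower limit, with 14.1, 13.1, 19.9 and 16.7 RPKM in Xins, against 114, 104, 111 and 93.1 RPKM in X1. A hit to the helicase PRP43 (SMED30020312), which takes spliceosomes apart in yeast, was at 22.7%. All 28 other transcripts of the list were lower in Xins, with a median share of 31.9% and 20 of them between 25% and 50%. The most abundant, an hnRNP A1 and A2/B1 hit (SMED30012822), averaged 410 ± 108 RPKM in Xins and 1087 ± 132 RPKM in X1 (log2 difference -1.43, SE 0.18, adjusted p = 1.47e-05).

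Further RNA-binding members stood outside the list patterns. There were 2 hits to TIA-1, a protein of cytoplasmic stress granules. SMED30008437 had 66.2, 51.1, 98.6 and 69.8 RPKM in Xins, against 283, 309.9, 296 and 308 RPKM in X1. SMED30009858 had 20.4, 31.1, 38.6 and 43.1 RPKM in Xins, against 136, 149, 161 and 163 RPKM in X1. The first was highest in Xins library 3 and lowest in library 2, the second highest in library 4 and lowest in library 1. The 2 TIA-1 hits thus did not follow the same order among the Xins libraries. A hit to Poly(A) polymerase gamma (SMED30029180), a nuclear enzyme that adds poly(A) tails, averaged 36.5 ± 8.69 RPKM in Xins and 164 ± 37.2 RPKM in X1. SMED30010227, a DEAD-box RNA helicase whose closest protein is bacterial CshB, averaged 105 ± 15.2 RPKM in Xins and 514 ± 28.9 RPKM in X1. Nuclear cap-binding protein subunit 1 (SMED30003920) and the helicase DDX55 (SMED30027652) were at 18.7% and 18.6%.

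The most abundant member overall was SMED30013212, whose closest protein is a Volvox histone H2A. It had 409, 485, 521 and 445 RPKM in Xins, against 1990.1, 2355, 2577 and 2862 RPKM in X1. The Xins libraries had an SD of 48.5 RPKM around a mean of 465, and the share was 19.0%. A hit to lysine-specific histone demethylase 1B (SMED30001661), which removes methyl groups from histone H3, was at 18.9%. The 29 other tested transcripts of the histone and chromatin list were lower in Xins in 25 cases and higher in 2, and 2 did not pass the test. They were spread from 2.33% to 277% of X1, with 14 of the 29 under 15%. The hits to histones H2A.J (SMED30002436) and H2A.Z (SMED30030543) averaged 25.1 and 26.3 RPKM in Xins and 1078 and 964 RPKM in X1, at 2.33% and 2.73%. The most abundant of the list's other transcripts, a Protein SET hit (SMED30034697), which chaperones histones, averaged 823 ± 188 RPKM in Xins and 2316 ± 287 RPKM in X1 (log2 difference -1.51, SE 0.18, adjusted p = 7.67e-06).

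Members outside the list patterns included hits to transcription and repair proteins. The RNA polymerase II subunit RPB9 hit (SMED30021243) averaged 49.6 ± 11.2 RPKM in Xins and 300.2 ± 30.8 RPKM in X1, at 16.5%. The Mediator subunit 17 hit (SMED30010286), which links regulators to the polymerase, averaged 15.9 ± 2.46 RPKM in Xins and 64.3 ± 4.44 RPKM in X1, at 24.8%. ERCC-1 (SMED30028315), a subunit of a nuclease of nucleotide excision repair, had 28.1, 28.1, 41.6 and 28.1 RPKM in Xins, against 155, 176, 162 and 244 RPKM in X1. Of its Xins libraries only library 3 stood apart.

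Protein-modifying enzymes were also present, beside a NudC domain-containing protein. The arginine methyltransferase PRMT1 hit (SMED30019468) had 153, 157, 243 and 201 RPKM in Xins, against 714, 847, 872 and 1003 RPKM in X1. SMED30017670, an N-terminal methyltransferase, had 224, 339, 290.4 and 258 RPKM in Xins, against 892, 1188, 1225 and 1520.3 RPKM in X1. Library 1 was the lowest in both fractions for both enzymes. A protein phosphatase hit to fly CG10417 (SMED30008984) averaged 69.3 ± 12.7 RPKM in Xins and 349 ± 48.4 RPKM in X1, and the NudC domain-containing protein 1 hit (SMED30019763) averaged 41.0 ± 7.83 RPKM in Xins and 184 ± 18.4 RPKM in X1.

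The study cloned 4 of the members as probes. The target-specific parts of their cloning primers are printed to identify these transcripts, 5′ to 3′ and without the 13-base cloning tails, which nearly all primers of the study share, and with no base in capitals because none is singled out. No genome was used here, so no position is given.
SMED30030198 (Lamin-B receptor) forward: tctgcagtttaagttaggcg
SMED30030198 (Lamin-B receptor) reverse: attggatagaaccagcacac
SMED30005802 (Nucleolin) forward: tcgtgtgaaaatggttgttaaaaagc
SMED30005802 (Nucleolin) reverse: tccctctttttgataataagatcgcc
SMED30011221 (Heat shock cognate 71 kDa protein) forward: ggtacaacttactcctgtgttgg
SMED30011221 (Heat shock cognate 71 kDa protein) reverse: cgcctgctgtagatttcacttc
SMED30026668 (COQ7 homolog) forward: actagggttaatcatgctgggg
SMED30026668 (COQ7 homolog) reverse: tgtaaaaacagagaacattaatgtgc

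The Lamin-B receptor hit, an inner nuclear membrane protein that binds the lamina and chromatin, had 71.8, 51.0, 107 and 59.3 RPKM in Xins, against 316, 321, 299 and 316 RPKM in X1. Its X1 libraries differed by an SD of only 9.26 RPKM around 313, while the Xins libraries had an SD of 24.6 RPKM around 72.2. It was the only member of the list of 13 nuclear pore, lamina and transport transcripts, and the other 12 were lower in Xins in 12 of 12 cases. Their shares ran from 2.17% for a Lamin-C hit (SMED30010297) to 61.5% for a Lamin-L(III) hit (SMED30014980), so 2 lamin hits lay on opposite sides of the receptor. The most abundant of the 12, the nuclear transport GTPase Ran (SMED30030013), averaged 1156 ± 133 RPKM in Xins and 3832 ± 885 RPKM in X1 (log2 difference -1.71, SE 0.19, adjusted p = 3.99e-06).

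Of the chaperone list, 3 of 17 transcripts were members, among them a BCS1 hit described with the mitochondrial members. The 2 hits to the heat shock cognate 71 kDa protein, a constitutive chaperone, were SMED30029494, recovered as 331 nucleotides, and SMED30011221, recovered as 790. The first had 54.4, 47.8, 73.2 and 87.3 RPKM in Xins, against 333, 308, 359.8 and 301 RPKM in X1. The second had 27.8, 34.1, 36.3 and 47.4 RPKM in Xins, against 165, 165, 200.02 and 157 RPKM in X1. Both were highest in Xins library 4 and X1 library 3, and lowest in X1 library 4. Another hit to a heat shock cognate 71 kDa protein, SMED30002262, was no member, at 39.0% (134 RPKM in Xins and 343 RPKM in X1). The 14 other chaperone transcripts were lower in Xins in 12 cases and higher in 1. The most abundant, Heat shock protein 83 (SMED30035193), averaged 1137 ± 77.3 RPKM in Xins and 3914 ± 264 RPKM in X1 (log2 difference -1.78, SE 0.14, adjusted p = 2.76e-07).

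Mitochondrial and metabolic members included the BCS1 hit (SMED30025330), which helps assemble a respiratory complex, at 39.3 ± 4.05 RPKM in Xins and 171 ± 29.4 RPKM in X1, and a mitochondrial Lon protease hit (SMED30025331) at 22.7%. The other 62 tested mitochondrial transcripts were mixed, with 30 lower, 25 higher and 7 not passing the test. The most abundant of them in X1, the 10 kDa mitochondrial heat shock protein (SMED30026539), averaged 1457 ± 642 RPKM in Xins and 3430 ± 685 RPKM in X1 (log2 difference -1.31, SE 0.27, adjusted p = 0.00084).

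The COQ7 hit (SMED30026668), a hydroxylase of ubiquinone synthesis, had 33.8, 45.01, 52.0 and 33.5 RPKM in Xins, against 129, 187, 161 and 234 RPKM in X1. An ATAD3 hit (SMED30022209), an ATPase of the mitochondrial inner membrane, had 38.4, 61.7, 61.96 and 85.7 RPKM in Xins, against 238, 274, 328 and 261 RPKM in X1, and its highest Xins library was 2.24 times its lowest. Serine hydroxymethyltransferase (SMED30022447), which feeds one-carbon metabolism, averaged 95.1 ± 17.1 RPKM in Xins and 398 ± 54.5 RPKM in X1. The purine synthesis enzyme PURH (SMED30026515) had 36.7, 38.3, 38.4 and 40.9 RPKM in Xins, against 141, 155, 174 and 187 RPKM in X1. Its Xins libraries were the closest together of all 150 members, the highest being 1.11 times the lowest. The 2 other described members, a tRNA-modifying enzyme hit (SMED30022891) and a phosphoacetylglucosamine mutase hit (SMED30012839), were at 23.6% and 18.5%.

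No member came from the lists of translation factors or tubulins. Of the 10 tested translation factors and tRNA synthetases, 8 were lower and 1 higher in Xins, and elongation factor 1-beta (SMED30001172), the most abundant, averaged 1368 ± 193 RPKM in Xins and 2253 ± 352 RPKM in X1 (log2 difference -0.72, SE 0.17, adjusted p = 0.0022). Of 5 tubulins, 2 were lower, 1 was higher and 2 did not pass the test, and the most abundant, an alpha-tubulin hit (SMED30031235), stood at 80.4 ± 27.5 RPKM in Xins and 2402 ± 429 RPKM in X1 (log2 difference -4.92, SE 0.22, adjusted p = 1.99e-09).

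**Figure D3:**
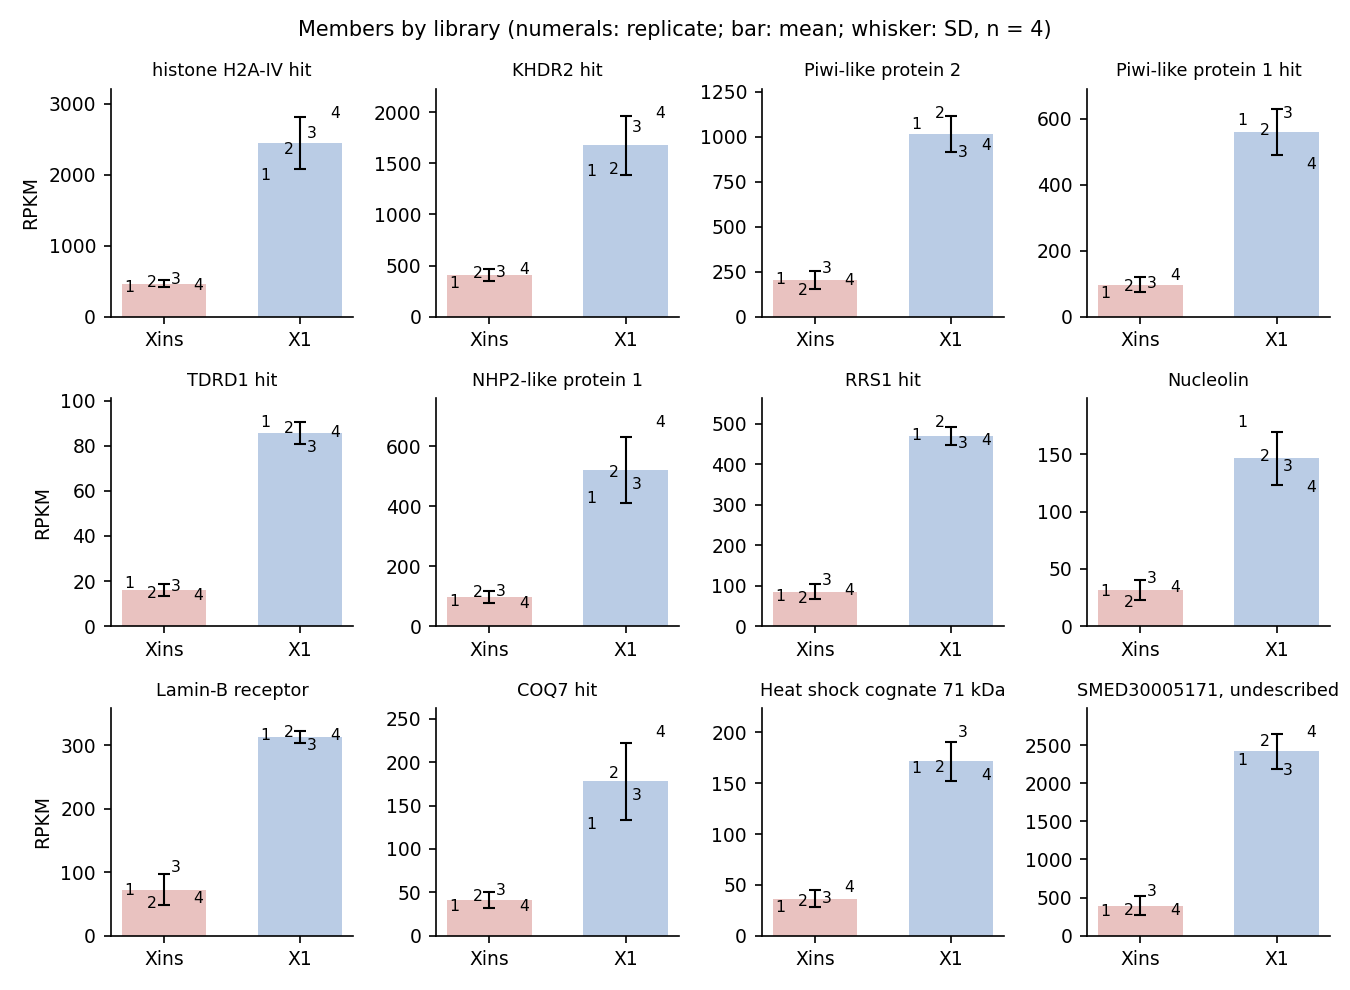
RPKM of 12 members in each library, Xins left and X1 right in every panel, with replicate numerals at the library values, bars at the mean of 4 libraries and whiskers at 1 SD. Within each panel the Xins libraries stay below all X1 libraries, and the replicate that is highest among the Xins libraries differs between members, for example library 3 for Lamin-B receptor and library 4 for the heat shock cognate.

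The other 108 members had no description at hand. Their means had a median of 25.2 RPKM in Xins and 119 RPKM in X1, against 40.5 RPKM in Xins and 184 RPKM in X1 for the 42 described members, and the median shares were 21.8% and 21.3%. They hold 8 of the 16 members above 500 RPKM in X1. SMED30000270 had 461, 578, 712 and 412 RPKM in Xins, against 1991, 2646, 2176 and 2921 RPKM in X1. SMED30005171 had 323, 334, 583 and 334 RPKM in Xins, against 2297, 2552, 2166 and 2667 RPKM in X1, and its Xins library 3 stood far above the other Xins libraries. The member nearest the upper limit, SMED30019021, had 14.8, 23.1, 18.1 and 26.6 RPKM in Xins, against 69.6, 73.2, 106 and 82.2 RPKM in X1.

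The Xins libraries did not hold the members at one level. Over the 150 members the median level, as percent of the transcript's X1 mean, was 17.7%, 19.4%, 24.1% and 21.1% in Xins libraries 1 to 4, and 88.8%, 97.8%, 101% and 109% in X1 libraries 1 to 4. Library 3 was the highest Xins library for 90 members and library 4 for 48, while library 1 was the lowest for 79. Over all 15563 transcripts tested these counts were 26.9%, 28.9% and 23.1%. In X1, library 1 was the lowest for 90 members and library 4 the highest for 76, against 34.1% and 35.8% of all tested. This X1 order depends on the scaling inside the RPKM values. The library size was 1.02 times the summed reads in X1 library 1 and 0.823 times in library 4. As a share of recovered reads, the members were highest in X1 library 1 (4.85%) and lowest in library 4 (4.51%). In Xins that share was still highest in library 3 (1.30%) and lowest in library 1 (1.07%). Remarks above on the order of X1 libraries hold for the deposited values only. Without Xins library 3 the median share of the members was 19.9%, and the rule then found 117 of the 150 again.

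Library 3 was the highest Xins library for most transcripts of the other abundant sets too. It was the highest for 92 of the 150 most abundant transcripts near equality (80% to 125%) and for 113 of the 150 most abundant with an Xins share under 10%, beside 90 of the 150 members. The set near equality had medians of 87.9%, 96.9%, 107% and 90.5% of the X1 mean in Xins libraries 1 to 4. The 7 replication markers summed to 1.87%, 2.90%, 4.31% and 2.96% of their X1 sum in Xins libraries 1 to 4. PCNA carried the high sum of library 3, with 39.3 RPKM there against 13.4 to 20.4 RPKM in the other Xins libraries. The 6 helicase subunits alone summed to 17.1, 26.8, 30.8 and 32.5 RPKM in Xins libraries 1 to 4, highest in library 4. The set under 10% had medians of 3.50%, 3.86%, 6.19% and 3.42% in the same libraries. The members' distance from that set follows from the choice of both. How far X1 cells within the Xins sort entered the members' values was not tested.

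**Figure D4:**
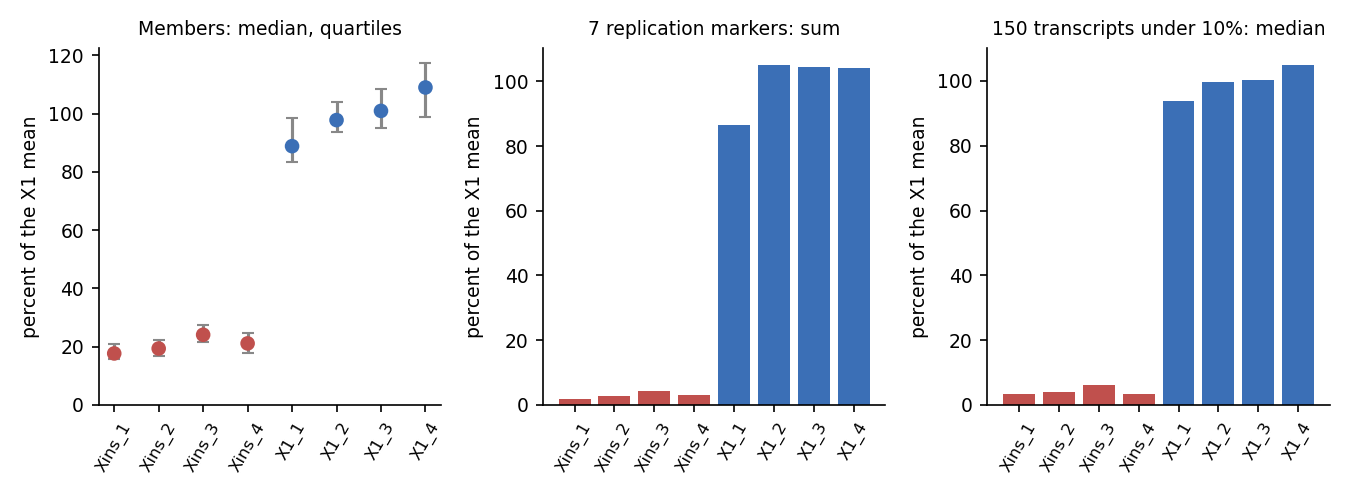
Level in each library as percent of the mean of the 4 X1 libraries, for the 150 members (median, with whiskers to the quartiles), the summed 7 replication markers, and the 150 most abundant transcripts under 10% (median), with Xins libraries left in red and X1 libraries right in blue. The members lie between 17.7% and 24.1% in Xins, the replication markers between 1.87% and 4.31%, and library 3 is the highest Xins library in all 3 panels, in the middle one through PCNA.

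Transcript length moved with the order of the libraries. The 90 members highest in Xins library 3 had a median recovered length of 997 nucleotides and the 48 highest in library 4 one of 1873. Among all transcripts tested the corresponding lengths were 989 and 1883 nucleotides. In the 58 members under 1000 nucleotides the median level was 126% of the Xins mean in library 3 and 86.8% in library 4. In the 26 members of 2000 nucleotides or more it was 105% in library 3 and 119% in library 4. In X1 the median was 117% of the X1 mean in library 4 for members under 1000 nucleotides and 98.4% for those of 2000 or more. The part of RNA or library quality in this order was not tested.

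Members varied more between Xins libraries than between X1 libraries. The coefficient of variation over 4 libraries had a median of 21.0% in Xins and 12.5% in X1, and it was larger in Xins for 121 of 150 members. From the recovered reads alone, counting would give medians of 3.97% in Xins and 2.05% in X1. Over all transcripts tested the medians were 20.9% in Xins and 20.6% in X1, and 47.8% were more variable in Xins. Among the 150 transcripts under 10% the medians were 38.1% in Xins and 10.96% in X1. In the set near equality they were 15.3% in Xins and 15.1% in X1. These sets differ in abundance, with median X1 means of 133 RPKM for the members, 87.0 RPKM for the set under 10% and 181 RPKM for the set near equality, and the differences between sets were not tested.

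**Figure D5:**
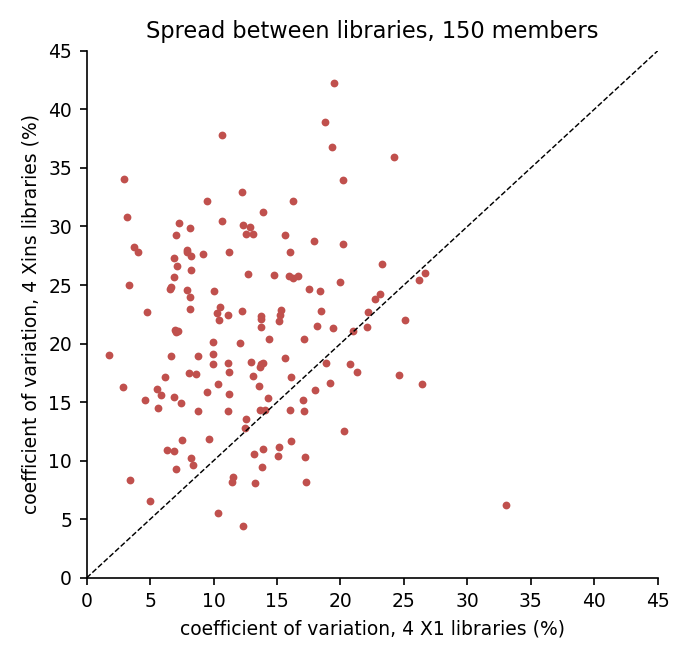
Coefficient of variation over 4 libraries in Xins (vertical, percent) and in X1 (horizontal, percent), with 1 point for each of the 150 members and the dashed line at equality. Of the points, 121 lie above the line, the Xins values run from 4.46% to 42.2%, and the medians are 21.0% in Xins and 12.5% in X1.

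Recovered lengths of the members ran from 303 to 4773 nucleotides, Piwi-like protein 2 being the longest, with a median of 1357.5. The medians were 1164 nucleotides in the set under 10%, 924 in the set near equality and 1267 over all tested. A description was at hand for 28.0% of the members, 54.0% of the set under 10%, 14.7% of the set near equality and 8.62% of all tested. Not every transcript in the study's RNAi tables has a description. The tables held 37.3% of the members, 72.7% of the set under 10%, 18.0% of the set near equality and 12.2% of all tested. Most of the members held there, 49, were listed as lowered in p53 RNAi only. That list held 32.7% of the members, 69.3% of the set under 10%, 2.0% of the set near equality and 3.69% of all tested. The described members are therefore no even sample of the RNAi lists.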

How the data were processed

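RNA of sorted Xins and X1 cells (4 libraries each) had been sequenced from Illumina TruSeq libraries made from 100 ng of RNA. The authors deposited 1 table of RPKM values. The submitters' processing notes name CASAVA 1.8.2, Bowtie and edgeR. Settings, transcript set and filters were not stated for these libraries in the sources read. The RPKM values of all 17882 rows were whole reads within 0.001 read once a length per row and a size per library were found. Those sizes were 1.02 to 1.15 times the summed reads in Xins and 0.823 to 1.02 times in X1, so the deposited RPKM values already carried a scaling between fractions. 0 per-sample columns were left out.

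Values were taken as log2(RPKM + 1). Transcripts with a mean of at least 1 RPKM were kept (15563, with 2319 left out, and 150 of 150 members kept). limma 3.58.1 (R 4.3.3) was fitted with a mean-variance trend, two-sided, as Xins minus X1, with Benjamini-Hochberg adjustment and a threshold of 0.05. It was tested on simulated data. Tables were made with Python 3.11.15, numpy 2.4.6 and pandas 2.3.3. Differences on this scale understate changes of low transcripts. The members were chosen on this contrast, so no p-value is given for them. The members and the 12 function lists, drawn by word patterns from descriptions, were chosen with earlier results of these data known. Named are the 30 most abundant described members, the Piwi-list, cloned and 3 most abundant members, and those nearest each limit. The non-member of each list with the highest X1 mean is also named. That choice favours transcripts lower in Xins, so their p-values are not independent of it. Other members are named without library values, and a few other transcripts of the lists (the DDX4, H2A, lamin and non-member heat shock cognate hits) were chosen after their values were seen. Alternatives were another pseudocount, filter, trend, block, scaling or left-out library.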

Additional observations from a re-analysis of the deposited data

Results flagged for a closer look

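In 104 groups of 4 library values (the named transcripts, the members' medians and the marker sums in each fraction), 5 had 1 library far from the other 3, and chance alone gives about 1 in 20. SMED30005171, an undescribed member, had 583 RPKM in Xins library 3, against 323 to 334 RPKM in the other Xins libraries. The ERCC-1 hit SMED30028315, also a member, had 41.6 RPKM in Xins library 3 and 28.1 RPKM in each of the others. SMED30034697, a Protein SET hit and no member, had 1102 RPKM in Xins library 3, against 702 to 761 RPKM. The gut markers summed to 93.2 RPKM in Xins library 4, against 65.1 to 69.0 RPKM in the other Xins libraries. The 7 replication markers summed to 1407 RPKM in X1 library 1, against 1692 to 1710.0 RPKM in the other X1 libraries. This low sum depends on the scaling inside the RPKM values. The library size there was 1.02 times the summed reads in X1 library 1 and 0.823 to 0.918 times in the other X1 libraries. Whether the flag holds with other sizes was not tested. Over all 150 members, 11 (7.33%) had such a lone library in Xins, each time library 3 as the highest, and 6 (4.0%) had one in X1, in 3 cases library 2 as the lowest. Over all 15563 transcripts tested these shares were 5.87% in Xins and 7.33% in X1, and 1.31% had a lone highest value in Xins library 3.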

How the results depend on the processing

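The members' place on the scale depended on library size. With sizes from summed reads, an alternative chosen after seeing the data, the median Xins share of the 150 was 25.8% and the rule found 64 of them again. With a common sum per library these values were 24.7% and 78. Under median-ratio and quantile scaling and with medians in place of means it was 21.0% to 22.4%, and the rule found 131, 125 and 128 again. Leaving out 1 library gave a median share of 19.9% to 22.4% and 117 to 140 shared members, the lowest in both cases without Xins library 3. The median log2 difference of the members ran from -2.29 to -1.94 over 19 alternatives. The median of all transcripts was 0.11 in the main fit, 0.27 with a common sum, 0.32 with summed reads and -0.22 under quantile normalization. Of the 12011 transcripts called, 45.9% were lower in Xins, and 56.0% of 12316 were under quantile normalization. Transcripts different between fractions numbered 11606 to 11919 when 1 library was left out, and 11958 by limma-voom on the recovered reads, also added after seeing the data. The function lists' non-members lower in Xins numbered 224 of 270 in the main fit and 222 to 227 without 1 library. These counts cover only transcripts with a description, so all tested transcripts are not a matched background for them. All 12 named non-members stayed lower in Xins and past the threshold under each of the 19 alternatives. They were chosen for the highest X1 mean of their list, which favours transcripts lower in Xins, so this count does not speak for their lists. The lists of DNA replication, mitosis and Piwi proteins had the 3 lowest median shares under each of 13 alternatives, and ribosome biogenesis stayed between 19.4% and 24.9%. The full order of the lists was not kept under every alternative. Histones and chromatin ran from 14.4% to 22.8% and nuclear pore, lamina and transport from 15.2% to 22.3%, so their order beside ribosome biogenesis is not fixed.

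The labels number the libraries 1 to 4 in both fractions. Deviations of same-numbered libraries from their fraction means correlated at -0.19 to 0.27 across transcripts, over 0.1 in 1 of 4 pairs. Of 8 libraries, 2 correlated best with their own number. Such weak correlations cannot settle whether the numbers pair the samples, and the labels do not say. With the replicate number as a block, 11911 transcripts were called and 225 of the 270 list transcripts were lower in Xins.

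Both fractions are mixtures of cells, descriptions cover few transcripts, and how the scaling inside the RPKM values was chosen is not known here.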
